A study of Mus musculus with 20 samples.

Results

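The constitutive proteasome subunit genes are the 31 genes that encode the fixed subunits of the proteasome, of 37620 genes in the deposited count table. They were chosen by name, as symbols matched to the Ensembl identifiers of the count table, and all 31 were found. They comprise the *Psma1* to *Psma7* and *Psmb1* to *Psmb7* genes of the core particle (14 genes) and the *Psmc1* to *Psmc6*, *Psmd1* to *Psmd4*, *Psmd6* to *Psmd8* and *Psmd11* to *Psmd14* genes of the regulatory particle (17 genes). RNA was measured in bulk bone marrow of 20 recipient mice, in 4 groups of 5. All recipients were lethally irradiated and carried transplanted marrow of transgenic donors, pooled over several donors, in which the doxycycline-responsive activator rtTA drove a transgene for 7 days on doxycycline chow (625 ppm), after more than 6 weeks of engraftment. The transgene was either U2AF1(WT) or U2AF1(S34F), a mutant of the splicing factor that reads the AG at the 3′ end of introns and recurs in myeloid neoplasms. During the last 5 days of induction the mice received either vehicle or the SF3B1-binding splicing modulator sudemycin D6 through a catheter in the jugular vein. Each transgene was thus studied with vehicle and with the drug, in marrow taken the day after the last infusion. Marrow keeps the endogenous *U2af1* gene in all of them, and the recipients' radioresistant stroma is not transgenic.

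The proteasome is the protease of the cytosol and nucleus that degrades proteins tagged with ubiquitin. Its core particle is a barrel of stacked rings, in which α subunits form the gated entrance and β subunits line the chamber where peptide bonds are cut. The regulatory particle caps the barrel: a ring of ATPases in its base unfolds the substrate and threads it inwards, scaffold and receptor subunits hold ubiquitin chains, and the lid removes the chains before degradation. Every subunit is needed in a fixed ratio, and the genes are known to be transcribed together. Plasma cells, which make large amounts of protein, depend strongly on the complex, and proteasome inhibitors are used against blood cancers.

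Total gene counts ranged from 41145892 to 62138138. U2AF1(WT) mice had medians of 47756240 with vehicle and 50091886 with the drug, and U2AF1(S34F) mice, which were sequenced more deeply, 55758927 and 54671379. With vehicle, *U2af1* stood at 34.8 to 38.4 CPM (counts scaled to a common library size by TMM) in U2AF1(WT) and 46.4 to 54.3 CPM in U2AF1(S34F) mice. With the drug it stood at 38.5 to 48.3 and 51.4 to 58.03 CPM, so the genotypes did not overlap in either treatment. These levels are a sum of endogenous and transgenic reads. *Xist*, the RNA of the inactive X chromosome, was at 879 CPM or more in all U2AF1(WT) mice and at 0.145 CPM or less in all U2AF1(S34F) mice, and the Y-linked *Kdm5d* was at 36.5 CPM or more in U2AF1(S34F) mice and at 0 in U2AF1(WT) mice. Genotype, this sex-linked pattern and the higher *U2af1* level cannot be told apart in any comparison of genotypes. No proteasome subunit gene lies on a sex chromosome. Replicate 2 of the vehicle-treated U2AF1(WT) group stood apart. It had the highest level of its group for 31 of 31 subunit genes, 1.36 times the mean of the other 4 mice at the median (range 1.15 to 1.65), and it lay outside the other 4 in most marker lists. Its summed markers were higher for monocytes and macrophages (1709 against 1179 to 1556 CPM) and lower for B cells (43.0 against 119 to 142), plasma cells (386 against 494 to 567), progenitors (105 against 135 to 161), T and NK cells (55.1 against 61.9 to 72.2), megakaryocytes (159 against 175 to 216), stroma (94.8 against 123 to 151) and neutrophils (67411 against 68431 to 75989), while erythroid markers lay within the others. The part of these differences in its subunit levels was not tested. Results that rest on this mouse are given with and without it. It was singled out by these same subunit levels, and leaving it out lowers the level of its group for all 31 genes. Comparisons against that group are thereby pushed towards a rise, so the counts without it are no independent support.

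Measured per length, the subunit genes were expressed within an order of magnitude of one another. Mean RPKM (the same scaled counts per kilobase of exon) over the 20 mice ran from 8.69 for *Psmd11* to 86.0 for *Psmb1*, a ratio of 9.91, with a median of 34.2, and 25 of the 31 genes lay within 2-fold of that median. *Psmb1*, *Psma6*, *Psmb4* and *Psmb7*, all of the core particle, held the top 4 places at 86.0, 69.0, 68.8 and 63.3 RPKM. The lowest were *Psmd11*, *Psmd3* and *Psmc2*, at 8.69, 10.3 and 13.3 RPKM. These ranks depend on the exon length of the gene model, which counts the exons of all annotated transcripts of a gene.

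**Figure D1:**
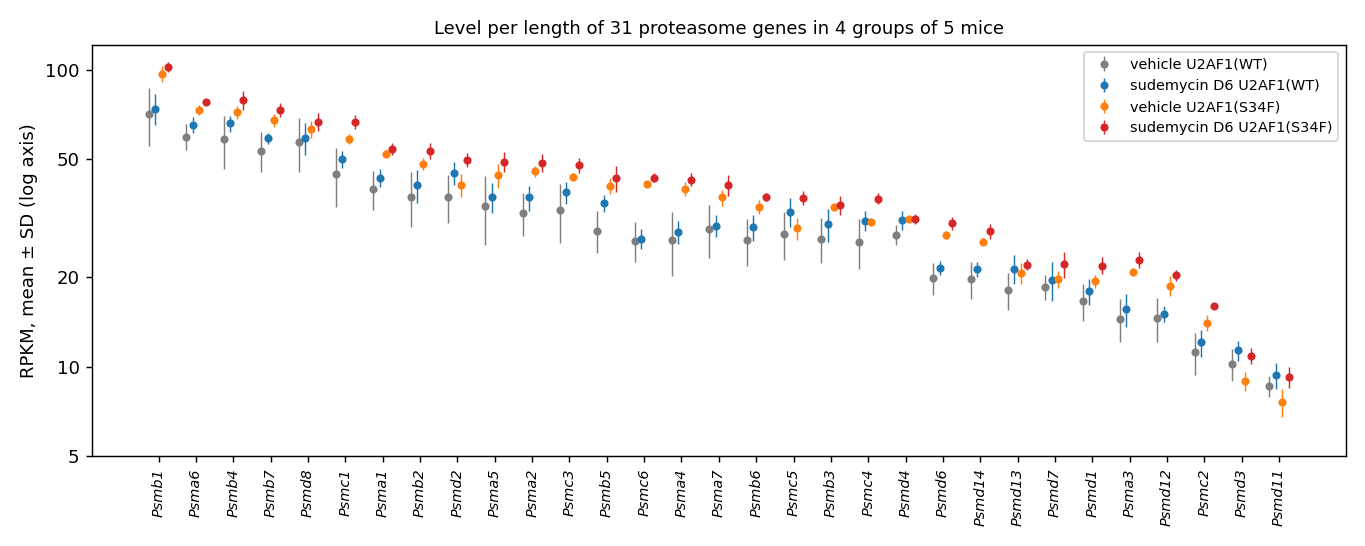
Mean RPKM ± SD of each of the 31 subunit genes in the 4 groups of 5 mice, on a log axis, ordered by the mean over all mice. The genes span 8.69 to 86.0 RPKM, and for most of them the U2AF1(S34F) groups (orange and red) lie above the U2AF1(WT) groups (grey and blue).

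Summed over the 31 genes, proteasome transcripts were lowest in vehicle-treated U2AF1(WT) mice and highest in sudemycin-treated U2AF1(S34F) mice. The sum was 2003 ± 325 CPM (mean ± SD, *n*=5; lowest 1798, highest 2576) in U2AF1(WT) mice given vehicle and 2211 ± 92.8 CPM (2097 to 2312) in sudemycin-treated U2AF1(WT) mice. It was 2491 ± 79.2 CPM (2405 to 2620) in vehicle-treated and 2739 ± 109 CPM (2576 to 2873) in sudemycin-treated U2AF1(S34F) mice. The upper end of the first range is replicate 2, and the other 4 mice of that group lay between 1798 and 1934 CPM, below every mouse of the other 3 groups. In bulk marrow, fewer cells of a type and less RNA per cell cannot be told apart, so these levels describe the tissue and not a cell.

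**Figure D2:**
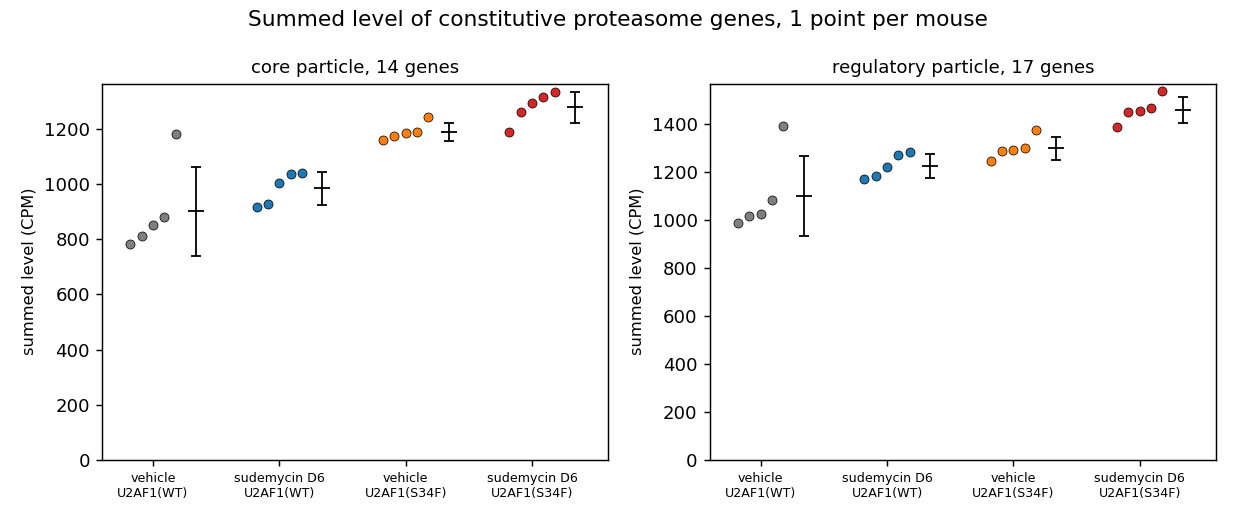
Summed CPM of the 14 core particle genes (left) and the 17 regulatory particle genes (right) in each mouse, with the mean ± SD of each group beside its points. In both panels 1 vehicle-treated U2AF1(WT) mouse lies far above the other 4 of its group, at 1184 CPM for the core and 1392 CPM for the regulatory particle.

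U2AF1(S34F) marrow was first compared with U2AF1(WT) marrow under vehicle, the comparison that addresses the mutant without the drug. Of the 31 subunit genes, 23 rose in U2AF1(S34F) mice and 0 fell at FDR<10% (edgeR quasi-likelihood test, Benjamini-Hochberg adjustment over all genes), where 19.7% of the 14817 genes tested rose and 19.8% fell (39.5% together). The median log2 fold change of the 31 genes was 0.34, against 0.00207 over all genes. All 14 core particle genes rose, by 0.29 to 0.57 on the log2 scale, though *Psma5* and *Psmb4* lost the call without 8 and 7 of the 10 mice in turn, and *Psma5* also under 3 of 7 settings that kept all mice. In the regulatory particle 9 of 17 rose: the ATPases *Psmc1*, *Psmc2*, *Psmc3* and *Psmc6*, the scaffold *Psmd1*, the ubiquitin receptor *Psmd4* and the lid genes *Psmd6*, *Psmd12* and *Psmd14*. Of these *Psmd1* and *Psmd4* lost the call without 8 and 7 of the 10 mice in turn, and both lost it with no filter and with junction reads. The 8 others did not pass the test, with log2 fold changes from -0.20 (*Psmd3*, FDR=0.114) and -0.19 (*Psmd11*, FDR=0.137), both structural genes of the lid, to 0.21 (*Psmc4*). Without replicate 2 of the vehicle-treated U2AF1(WT) group, 27 rose and 0 fell, with a median of 0.46, and of all genes 24.2% rose and 22.1% fell. Where only genes with at least 50 counts in at least 5 mice were tested, 22 rose and 1 fell, *Psmd3*, a gene singled out after its value was seen.

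Markers of cell types are given next, in a comparison where 39.5% of all genes were called, so single calls among them are common. Summed over 10 neutrophil markers, the level was 67411 to 75989 CPM in vehicle-treated U2AF1(WT) and 89027 to 145005 CPM in vehicle-treated U2AF1(S34F) mice, without overlap, and 4 of the 10 genes rose (*Camp*, *Mmp8*, *S100a8* and *S100a9*). B cell markers spanned 43.0 to 142 and 16.4 to 168 CPM, with 0 of 9 called. Of 8 monocyte and macrophage markers 3 fell and 1 rose, while 0 of 10 erythroid markers passed the test. Plasma cell markers fell in 2 of 5 cases and rose in 1, T and NK cell markers rose in 3 of 7 and fell in 1, and of 6 megakaryocyte, 6 progenitor and 6 stroma markers 1 rose and 1 fell in each list. No defining neutrophil, erythroid or monocyte marker was at 0 in any mouse, and *Bglap*, an osteoblast gene of the recipient's stroma, was at 0 in 12 of the 20. The part of these marker differences in the proteasome result was not tested.

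The catalytic subunits followed the other core genes. *Psmb5* encodes the β5 subunit, which cuts after hydrophobic residues and is the main target of bortezomib. It measured 23.0, 23.1, 25.1, 28.2 and 33.1 CPM in the vehicle-treated U2AF1(WT) mice and 35.1, 36.2, 36.2, 39.2 and 40.5 CPM in the vehicle-treated U2AF1(S34F) mice. Under sudemycin D6 it measured 30.8, 31.6, 31.8, 33.6 and 36.2 CPM in the U2AF1(WT) and 33.6, 38.5, 40.6, 41.0 and 44.6 CPM in the U2AF1(S34F) genotype. Under vehicle the 2 genotypes did not overlap, the log2 fold change was 0.49 ± 0.10 (standard error, FDR=0.00318), and under the drug, where the lowest U2AF1(S34F) mouse lay among the U2AF1(WT) mice, it was 0.27 ± 0.08 (FDR=0.0286).

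*Psmb6* encodes the β1 subunit, which cuts after acidic residues. Its level was 40.3, 47.0, 47.4, 50.1 and 64.4 CPM in the vehicle-treated U2AF1(WT) mice and 59.3, 63.7, 65.8, 67.1 and 67.4 CPM in the vehicle-treated U2AF1(S34F) mice. With the drug its values were 47.4, 51.5, 56.6, 59.4 and 60.6 CPM in the U2AF1(WT) and 66.0, 70.0, 70.2, 70.7 and 71.9 CPM in the U2AF1(S34F) genotype. The drug-treated genotypes were separate and the vehicle-treated ones overlapped through replicate 2 alone, with log2 fold changes of 0.36 ± 0.10 (FDR=0.0192) under vehicle and 0.34 ± 0.07 (FDR=0.00605) under sudemycin D6.

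*Psmb7* encodes the β2 subunit, which cuts after basic residues. Counts gave 57.3, 61.2, 61.3, 61.9 and 82.2 CPM in the vehicle-treated U2AF1(WT) mice and 77.8, 78.8, 81.8, 84.5 and 88.1 CPM in the vehicle-treated U2AF1(S34F) mice. Sudemycin D6-treated marrow gave 67.8, 69.6, 71.3, 72.0 and 76.0 CPM in the U2AF1(WT) and 81.9, 85.9, 92.0, 92.1 and 93.0 CPM in the U2AF1(S34F) genotype. Again only replicate 2 of the vehicle-treated U2AF1(WT) mice reached the U2AF1(S34F) range, and the log2 fold change was 0.33 ± 0.10 (FDR=0.0197) under vehicle and 0.32 ± 0.06 (FDR=0.00306) under the drug.

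**Figure D3:**
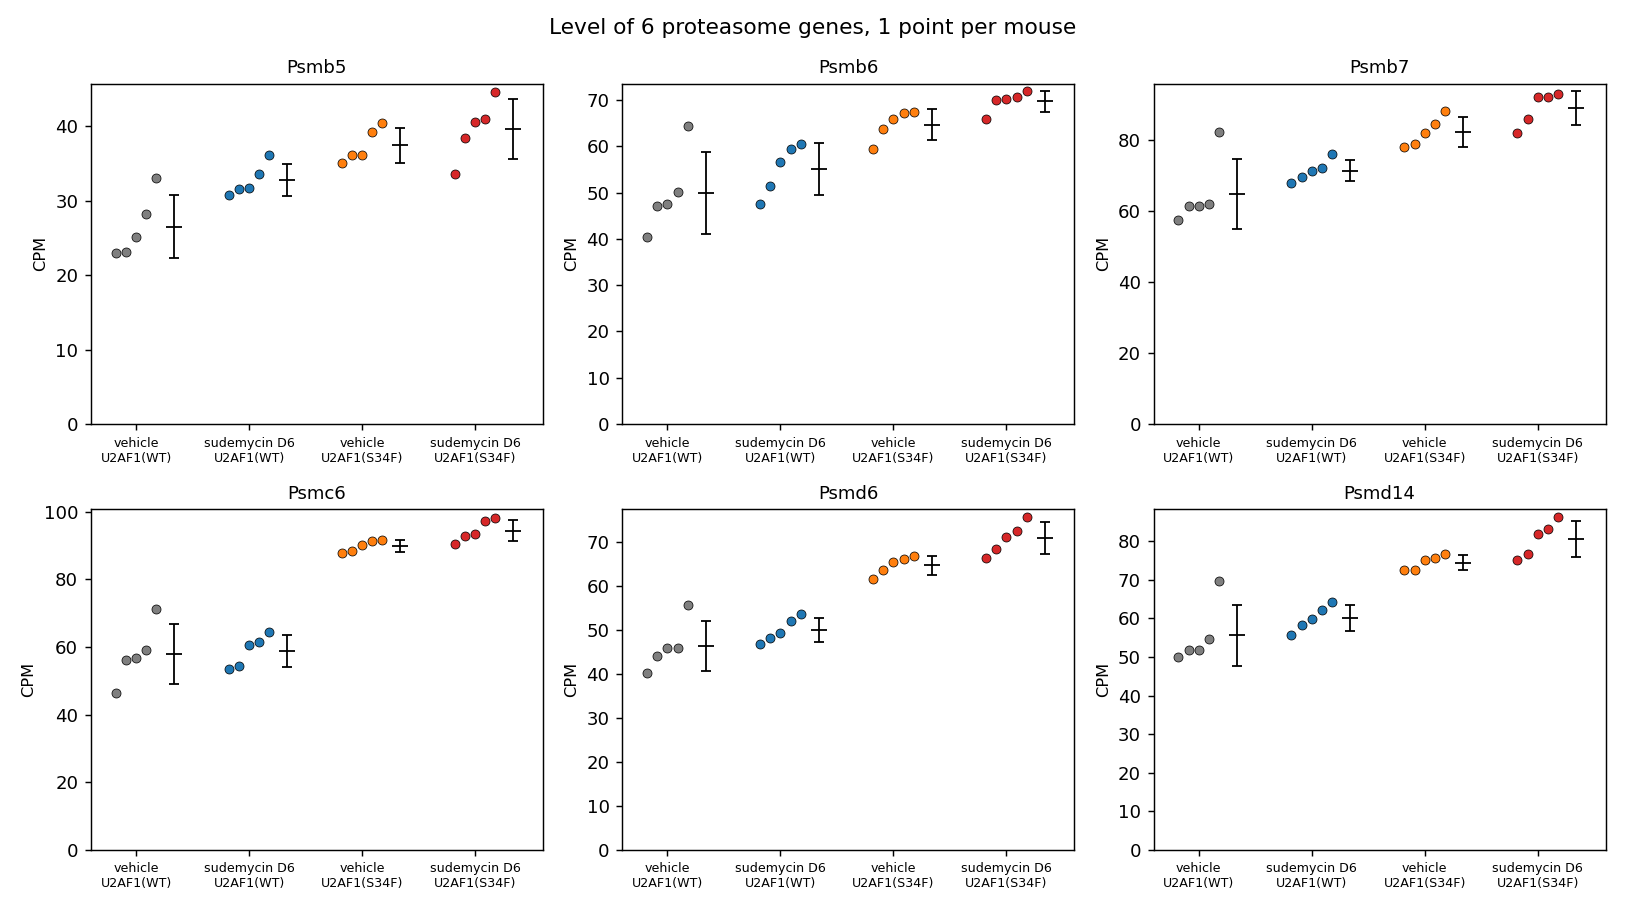
CPM of the 3 catalytic subunit genes (top) and of *Psmc6*, *Psmd6* and *Psmd14* (bottom) in each mouse, with the mean ± SD of each group beside its points. Every U2AF1(S34F) mouse lies above every U2AF1(WT) mouse of the same treatment for *Psmc6*, *Psmd6* and *Psmd14*, which are among the genes shown for their small p. Of the 31 subunit genes, 8 were apart in this way under vehicle and 21 under sudemycin D6. How many of all genes were apart was not counted, so these counts do not set the subunit genes apart from other genes. Of all genes, 39.5% were called between the genotypes under vehicle and 36.8% under sudemycin D6.

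In the α ring, which gates the barrel, *Psma4* and *Psma3* showed the largest differences. *Psma4* stood at 49.5, 54.8, 59.5, 62.5 and 89.0 CPM in the vehicle-treated U2AF1(WT) mice and 91.3, 91.4, 92.4, 93.5 and 103 CPM in the vehicle-treated U2AF1(S34F) mice. The drug-treated mice had 60.6, 65.1, 65.2, 68.5 and 76.8 CPM in the U2AF1(WT) and 95.5, 98.9, 99.3, 103 and 109 CPM in the U2AF1(S34F) genotype. The highest U2AF1(WT) mouse in the first set, replicate 2, stayed below all U2AF1(S34F) mice. The log2 fold change of *Psma4* was 0.57 ± 0.13 (FDR=0.00589) under vehicle and 0.58 ± 0.08 (FDR=0.000341) under the drug. *Psma3* stood at 46.3, 52.8, 52.9, 58.5 and 71.1 CPM in the vehicle-treated U2AF1(WT) mice and 76.6, 81.8, 82.0, 82.0 and 82.5 CPM in the vehicle-treated U2AF1(S34F) mice. In the drug-treated mice it stood at 49.0, 58.6, 61.3, 63.9 and 70.5 CPM in the U2AF1(WT) and 82.7, 84.0, 91.2, 91.4 and 96.5 CPM in the U2AF1(S34F) genotype. Neither pair of groups overlapped, with log2 fold changes of 0.51 ± 0.10 and 0.55 ± 0.09 (FDR=0.00213 and 0.00169). For *Psma2* the values were 79.2, 81.0, 81.5, 84.7 and 114 CPM in the vehicle-treated U2AF1(WT) mice and 116, 118, 119.5, 127 and 128 CPM in the vehicle-treated U2AF1(S34F) mice. Given sudemycin D6, mice measured 87.5, 90.1, 104, 105 and 109 CPM in the U2AF1(WT) and 121, 126, 127, 129 and 145 CPM in the U2AF1(S34F) genotype. The genotypes were again separate, by 0.45 ± 0.10 (FDR=0.00412) and 0.39 ± 0.08 (FDR=0.00468) on the log2 scale.

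*Psmc6*, an ATPase of the base, had the largest fold change of all 31 genes in both comparisons of genotypes. It stood at 46.3, 56.0, 56.8, 59.2 and 71.1 CPM in the vehicle-treated U2AF1(WT) mice and 87.8, 88.2, 90.1, 91.2 and 91.7 CPM in the vehicle-treated U2AF1(S34F) mice. With sudemycin D6 the values were 53.5, 54.3, 60.5, 61.5 and 64.4 CPM in the U2AF1(WT) and 90.5, 92.8, 93.3, 97.3 and 98.1 CPM in the U2AF1(S34F) genotype. Between the highest U2AF1(WT) and the lowest U2AF1(S34F) mouse lay a gap in both treatments, and the log2 fold change was 0.62 ± 0.10 (FDR=0.000542) under vehicle and 0.68 ± 0.07 (FDR=8.18e-05) under sudemycin D6. *Psmc1*, a further ATPase, stood at 57.0, 58.1, 62.3, 66.7 and 93.6 CPM in the vehicle-treated U2AF1(WT) mice and 85.2, 86.1, 88.3, 91.7 and 92.8 CPM in the vehicle-treated U2AF1(S34F) mice. Treated mice had 70.0, 70.5, 77.8, 80.1 and 80.8 CPM in the U2AF1(WT) and 95.1, 95.9, 103, 106 and 107 CPM in the U2AF1(S34F) genotype. Replicate 2 was the only vehicle-treated U2AF1(WT) mouse that was not below all U2AF1(S34F) mice, and it lay above them. The log2 fold changes of *Psmc1* were 0.38 ± 0.12 (FDR=0.0282) and 0.42 ± 0.07 (FDR=0.00129). The 6 ATPases form 1 ring, yet *Psmc5* differed by only 0.05 ± 0.12 (FDR=0.776) under vehicle and 0.15 ± 0.08 (FDR=0.188) under the drug, and did not pass the test in either.

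In the lid 3 of 8 genes rose under vehicle, and the same 3 rose under sudemycin D6. The 3 were *Psmd6* and *Psmd12*, which help to build the arc of the lid, and *Psmd14*, which encodes the deubiquitinase that cuts ubiquitin chains off the substrate. *Psmd6* measured 40.1, 44.0, 45.8, 45.8 and 55.5 CPM in the vehicle-treated U2AF1(WT) mice and 61.4, 63.6, 65.4, 66.0 and 66.8 CPM in the vehicle-treated U2AF1(S34F) mice. Drug-treated marrow held 46.8, 48.1, 49.3, 51.8 and 53.6 CPM in the U2AF1(WT) and 66.3, 68.2, 71.1, 72.4 and 75.5 CPM in the U2AF1(S34F) genotype. No mouse crossed between genotypes, and the log2 fold changes were 0.47 ± 0.08 (FDR=0.00139) and 0.50 ± 0.06 (FDR=0.000331). *Psmd12* measured 30.1, 36.4, 38.5, 39.7 and 48.4 CPM in the vehicle-treated U2AF1(WT) mice and 46.2, 47.0, 49.0, 50.2 and 55.6 CPM in the vehicle-treated U2AF1(S34F) mice. Under the drug it stood at 36.98, 37.8, 40.2, 42.0 and 42.6 CPM in the U2AF1(WT) and 51.8, 52.0, 53.5, 54.6 and 56.9 CPM in the U2AF1(S34F) genotype. Replicate 2 again lay among the U2AF1(S34F) mice, and the log2 fold changes were 0.35 ± 0.11 (FDR=0.0271) and 0.42 ± 0.06 (FDR=0.000812). *Psmd14* measured 50.03, 51.7, 51.8, 54.8 and 69.6 CPM in the vehicle-treated U2AF1(WT) mice and 72.5, 72.5, 75.1, 75.6 and 76.6 CPM in the vehicle-treated U2AF1(S34F) mice. With drug the level was 55.7, 58.2, 59.9, 62.2 and 64.4 CPM in the U2AF1(WT) and 75.2, 76.7, 81.9, 83.1 and 86.3 CPM in the U2AF1(S34F) genotype. All U2AF1(S34F) mice exceeded the U2AF1(WT) mice of their treatment, by 0.41 ± 0.09 (FDR=0.00430) and 0.42 ± 0.07 (FDR=0.00102). A second *Psmd14* gene model overlaps it on the same strand, and how reads were divided between the models is not given in the sources used here. From reads on exon junctions the log2 fold changes were 0.42 ± 0.09 and 0.40 ± 0.08. Exons of *Psmb5* (a microRNA gene) and *Psmd1* (*Armc9*) also overlap another gene on the same strand, and those of *Psma4*, *Psma5*, *Psmb7*, *Psmc3*, *Psmd1*, *Psmd3* and *Psmd13* a gene on the opposite strand, so their counts carry the same uncertainty.

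The same comparison of genotypes was made under sudemycin D6. Here 22 subunit genes rose in U2AF1(S34F) mice and 0 fell, where 17.2% of 14677 genes rose and 19.6% fell (36.8% together), and the median log2 fold change of the 31 was 0.32 (-0.0275 over all genes). In the core particle 13 of 14 rose, and *Psmb3* (log2 fold change 0.21 ± 0.09, FDR=0.112) did not pass. In the regulatory particle 9 of 17 rose: *Psmc1*, *Psmc2*, *Psmc3*, *Psmc4*, *Psmc6*, *Psmd1*, *Psmd6*, *Psmd12* and *Psmd14*. The 8 that did not pass ranged from -0.06 (*Psmd3*) to 0.18 (*Psmd8*). Neutrophil markers summed to 63047 to 110187 CPM in U2AF1(WT) and 76519 to 126491 CPM in U2AF1(S34F) mice, overlapping here, with 2 of 10 called. Erythroid markers fell in 5 of 10 cases, B cell markers in 4 of 9, T and NK cell markers in 3 of 7 and megakaryocyte markers in 3 of 6. Plasma cell markers fell in 3 of 5 cases and rose in 1, and monocyte and macrophage markers rose in 3 of 8 and fell in 1. The part of these markers in the proteasome result was not tested.

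**Figure D4:**
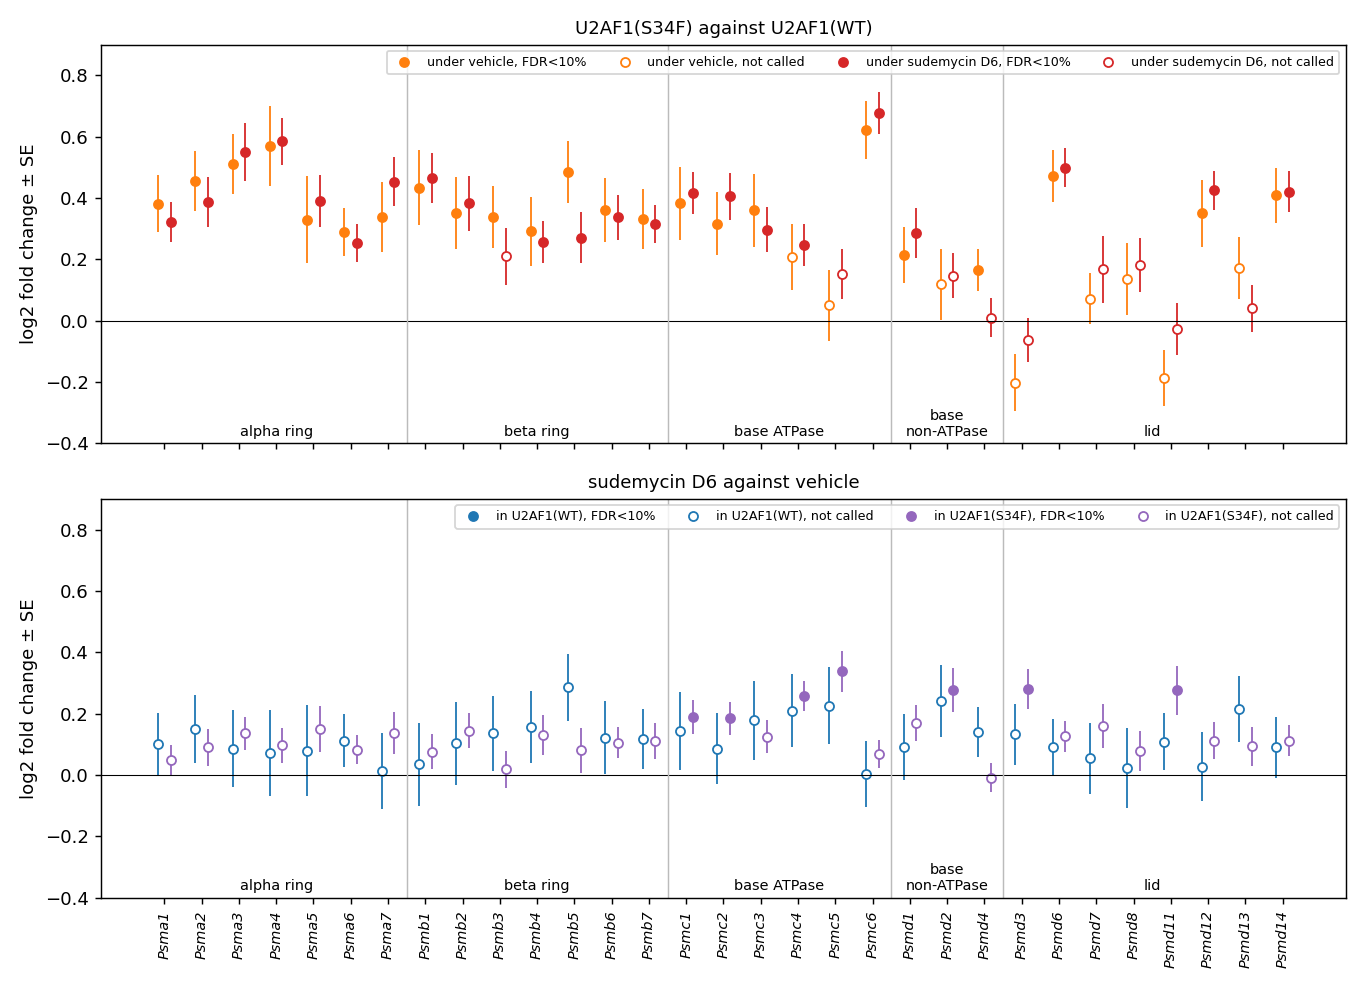
Log2 fold change ± standard error of each subunit gene, grouped by role, between genotypes under each treatment (top) and between sudemycin D6 and vehicle in each genotype (bottom), with filled circles for FDR<10%. Genotype differences fill the core particle and thin out over the lid, where *Psmd3* and *Psmd11* lie below 0, and the drug differences that pass the test are 7, all in the regulatory particle of U2AF1(S34F) mice.

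Sudemycin D6 was then compared with vehicle within each genotype, where the sex-linked transcripts do not differ. In U2AF1(WT) mice 0 subunit genes passed the test (edgeR; 1, *Psmb5*, had an unadjusted p under 0.05, and DESeq2 also called 0), where 1.18% of 14763 genes rose and 1.89% fell (3.07% together). All 31 log2 fold changes lay above 0, between 0.0037 (*Psmc6*) and 0.29 (*Psmb5*, FDR=0.261), with a median of 0.11. This comparison rested on replicate 2: without it 6 genes rose, which were *Psmb4* (0.30 ± 0.07), *Psmb5* (0.38 ± 0.09), *Psmc1* (0.29 ± 0.08), *Psmc3* (0.32 ± 0.09), *Psmc4* (0.34 ± 0.09) and *Psmd2* (0.36 ± 0.09), and the median was 0.20, where 1.96% of all genes rose and 2.94% fell. With all 20 mice in 1 model, *Psmb5* alone passed. B cell markers fell in 2 of 9 cases and progenitor markers in 2 of 6, with 0 of 10 neutrophil markers called, and their part in the result was not tested.

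In U2AF1(S34F) mice 7 subunit genes rose with sudemycin D6 and 0 fell, where 4.94% of 14714 genes rose and 5.85% fell (10.8% together). All 7 belong to the regulatory particle. They were the ATPases *Psmc1* (0.19 ± 0.06, FDR=0.0664), *Psmc2* (0.19 ± 0.05, FDR=0.0639), *Psmc4* (0.26 ± 0.05, FDR=0.0116) and *Psmc5* (0.34 ± 0.07, FDR=0.0154), the scaffold *Psmd2* (0.28 ± 0.07, FDR=0.0417) and the lid genes *Psmd3* (0.28 ± 0.06, FDR=0.0284) and *Psmd11* (0.28 ± 0.08, FDR=0.0626). *Psmc5* ranged from 36.1 to 45.8 CPM under vehicle and from 48.5 to 56.0 CPM under the drug, without overlap. *Psmd3* ranged from 40.5 to 48.4 and from 50.2 to 58.8 CPM, also without overlap. *Psmd11* ranged from 42.1 to 56.6 and from 54.6 to 66.7 CPM and overlapped. Core particle genes differed by 0.0186 to 0.15 and 0 of 14 passed, while *Psmd4* was the 1 gene below 0 (-0.0084). The median over the 31 was 0.13. *Psmc1*, *Psmc2* and *Psmd11* lost the call without 6, 6 and 5 of the 10 mice in turn. The count was 4 without replicate 1, 3 or 11 of the vehicle-treated U2AF1(S34F) mice, and 3 with all 20 mice in 1 model. Markers of progenitors summed to 132 to 171 CPM under vehicle and 91.3 to 124 CPM under the drug, and 4 of 6 fell. B cell markers fell in 2 of 9 cases, T and NK cell markers in 2 of 7, megakaryocyte markers in 2 of 6, plasma cell markers in 1 of 5 and erythroid markers in 1 of 10. Their part in the result was not tested.

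Over all 20 mice with genotype as a term, 6 subunit genes rose with the drug and 0 fell, where 7.92% of 15069 genes rose and 7.31% fell (15.2% together). These were *Psmb5* (0.19 ± 0.07), *Psmc4* (0.25 ± 0.06), *Psmc5* (0.29 ± 0.07), *Psmd2* (0.27 ± 0.07), *Psmd3* (0.22 ± 0.06) and *Psmd11* (0.20 ± 0.06), and all 31 log2 fold changes lay above 0. Without replicate 2 of the vehicle-treated U2AF1(WT) mice the count was 24, with 0 lower, where 11% of all genes rose and 9.02% fell. *Psmb5* lost the call with no filter and without 9 of the 20 mice in turn, and *Psmd3* lost it with junction reads. Progenitor markers fell in 5 of 6 cases in the same model, B cell markers in 3 of 9, megakaryocyte markers in 2 of 6 and T and NK cell markers in 1 of 7, and their part was not tested. The difference of the drug effects between genotypes was called for 0 subunit genes (edgeR; 0 had an unadjusted p under 0.05, and DESeq2 called 0), where 0.013% of 15392 genes were called higher and 0.0% lower. The differences ranged from -0.22 ± 0.13 (*Psmb5*) to 0.15 ± 0.12 (*Psmd11*) on the log2 scale.

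Sudemycin-treated U2AF1(S34F) mice were last set against vehicle-treated U2AF1(WT) mice, which combines both perturbations and shares its mice with the comparisons above. Here 28 subunit genes rose and 0 fell, where 25.1% of 14761 genes rose and 25.1% fell (50.2% together). The median log2 fold change was 0.48, against 0.34 for the genotype under vehicle and 0.13 for the drug in U2AF1(S34F) mice. For each gene the first change is by construction the others added together, apart from separate fits. These medians therefore say nothing of how drug and mutant combine. All 14 core genes rose, by 0.37 to 0.68, as did 14 of 17 regulatory genes, with *Psmc6* at 0.71 ± 0.09 (FDR=0.000118), *Psmd6* at 0.61 ± 0.08 (FDR=0.000150) and *Psmb5* at 0.58 ± 0.11 (FDR=0.00103). The 3 that did not pass were lid genes: *Psmd3* (0.09 ± 0.09), *Psmd8* (0.23 ± 0.11) and *Psmd11* (0.11 ± 0.08). Without replicate 2, 29 rose and the median was 0.59, where 28.4% of all genes rose and 27.8% fell. B cell markers fell in 9 of 9 cases and neutrophil markers rose in 4 of 10. Plasma cell markers fell in 4 of 5 cases and rose in 1, T and NK cell markers fell in 4 of 7 and rose in 2, and megakaryocyte markers fell in 3 of 6 and rose in 1. Progenitor markers fell in 4 of 6 cases and erythroid markers in 4 of 10. The part of these markers in the result was not tested.

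Genes that work with the proteasome are given by list. Of 8 assembly chaperones measured, 3 rose and 0 fell in U2AF1(S34F) mice under vehicle: *Psmg1* (0.35 ± 0.10), which pairs α subunits, *Pomp* (0.34 ± 0.14), which matures the β ring, and *Psmd5* (0.26 ± 0.08), a chaperone of the base. Under sudemycin D6 4 rose and 1, *Psmd9* (-0.37 ± 0.10), fell. Of 6 further subunits that bind the regulatory particle 4 rose under vehicle, with the deubiquitinases *Uchl5* at 0.42 ± 0.08 and *Usp14* at 0.31 ± 0.11, and the ubiquitin receptor *Adrm1* fell (-0.29 ± 0.07), while under sudemycin D6 2 rose and 1 fell. Among 5 activators and inhibitors 3 rose under vehicle, led by *Psme2* (0.48 ± 0.13), a subunit of an interferon-inducible cap, and 1 fell. Between the genotypes under sudemycin D6 1 of the 5 rose and 1 fell, with a median of -0.0081. *Psmf1*, which encodes an inhibitor of the core, fell (-0.21 ± 0.08, FDR=0.0608) with the genotype and rose with the drug in both genotypes (0.38 ± 0.09, FDR=0.0535, in U2AF1(WT) and 0.29 ± 0.06, FDR=0.0139, in U2AF1(S34F) mice). Of the interferon-inducible replacements of the catalytic subunits, *Psmb8* (0.22 ± 0.10, FDR=0.127) and *Psmb10* (0.09 ± 0.13, FDR=0.597) were not called in any of the 7 comparisons, and *Psmb9* had gene counts of 3 or fewer in every mouse and was not tested.

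In the transcriptional control list the genes that passed the test fell in both comparisons of genotypes and in both comparisons of the drug within a genotype. *Keap1* rose for both perturbations together (0.18 ± 0.07, FDR=0.0590) and for the drug with genotype as a term (0.16 ± 0.05, FDR=0.0443), where 4 and 2 of the 7 fell. *Nfe2l1*, the factor that raises proteasome genes when the enzyme is inhibited, fell with the genotype by 0.19 on the log2 scale (FDR=0.0467) under vehicle and by 0.24 (FDR=0.0245) under the drug. Its small Maf partners fell too, *Mafk* with a log2 fold change of -1.16 ± 0.10 (FDR=8.89e-06), *Maff* of -1.83 ± 0.28 and *Mafg* of -0.35 ± 0.15, so that 4 of 7 genes fell and 0 rose. With sudemycin D6 *Mafk* fell in both genotypes (-0.88 ± 0.13 and -0.32 ± 0.07). *Ddi2*, the protease that releases the Nfe2l1 protein, is not part of this list. It rose with the drug in U2AF1(S34F) mice (0.48 ± 0.06, FDR=0.00123). Of 6 ubiquitin genes and activating enzymes 3 rose and 1 fell with the genotype under vehicle. Those that rose include *Rps27a* (0.40 ± 0.10), a ubiquitin fusion gene, and *Uba6* (0.35 ± 0.10), a ubiquitin-activating enzyme. Of 10 shuttle and segregase genes 1 rose, *Rad23b* (0.40 ± 0.11), and 1 fell, *Ubqln2* (-0.74 ± 0.10), for the genotype under vehicle. Under sudemycin D6 4 rose and 0 fell, and for both perturbations together 5 rose and 1 fell.

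The promoters of the subunit genes were searched for 5 motifs on both strands. RefSeq windows of 300 bases (250 before to 50 after the start, GRCm38.p6) were at hand for 25 of the 31 genes, in 27 promoters. The ETS core CCGGAAG occurred in 11 of the 27 (40.7%) and in 8.86% of all 32851 promoters, and the NRF1 motif in 6 (22.2%) and 4.60%. CCAAT occurred in 10 (37.04%, 37.41% of all), the antioxidant response core TGACNNNGC in 4 (14.8%, 12.4% of all), namely *Psmb5*, *Psmb6*, *Psmc6* and *Psmd12*, and TATAAA in 3 (11.1%, 13.6% of all). A match of letters describes the window and says nothing of binding. The 250 bases before the start of *Psmc6*, the gene with the largest difference between genotypes (chr14:45329574-45329823, + strand), and of *Psmd14*, whose splicing is described next (chr2:61711444-61711693, + strand), are shown with matches to any of the 5 motifs in capitals, a response core and an ETS core in the first and CCAAT (reversed) and NRF1 in the second.
Psmc6: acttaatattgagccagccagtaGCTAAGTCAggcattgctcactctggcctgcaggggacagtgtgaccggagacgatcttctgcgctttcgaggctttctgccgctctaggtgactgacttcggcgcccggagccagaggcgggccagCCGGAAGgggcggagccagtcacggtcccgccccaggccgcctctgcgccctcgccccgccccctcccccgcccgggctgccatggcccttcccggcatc
Psmd14: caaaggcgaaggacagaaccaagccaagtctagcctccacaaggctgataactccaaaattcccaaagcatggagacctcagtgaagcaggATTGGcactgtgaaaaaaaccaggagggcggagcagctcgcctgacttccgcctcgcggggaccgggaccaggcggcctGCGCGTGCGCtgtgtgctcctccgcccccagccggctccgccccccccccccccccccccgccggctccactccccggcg

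Splicing of the subunit genes was measured as Ψ of cassette exons, the share of junction reads that include an exon, with reads of the 2 inclusion junctions averaged. Calls needed |ΔΨ|>1% beside FDR<10%. Under vehicle 6 of 52 subunit events were called between genotypes, where 4.43% of 25019 events were, and under sudemycin D6 4 of 57 (3.91% of 24577). The drug gave 0 of 54 in U2AF1(WT) mice (edgeR; 8 had an unadjusted p under 0.05, limma called 0, and 1.63% of 24771 events were called) and 2 of 62 in U2AF1(S34F) mice (1.82% of 24439). Both perturbations together gave 5 of 53 (7.61% of 24966). With limma on Ψ these counts were 0, 0, 0, 0 and 4. Of the 17 calls, 15 lay in *Psmd14*, 1 in *Psma4* and 1 in *Psmd8*. The *Psmd14* events share their skipping junctions and are not independent of one another.

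Most of the called events concern exon 3 of *Psmd14* (chr2:61560767-61560818, + strand, mm9; 52 bases). It carries the annotated translation start, with 4 untranslated bases before the first coding base at position 61560771 and 48 coding bases after it, and it is followed by an intron of 37874 bases. The ends of the introns before exons 3 and 4 are shown because U2AF1 reads this place: each line has the last 20 bases of the intron and the first 3 of the exon, and the capital marks the base just before the AG.
Psmd14 exon 3: cctttgtttctgttttcTagaaa
Psmd14 exon 4: attgatggacttgtttcTagggc
Both have T before AG, as has exon 2 of *Psmd14*, unlike the called exons of *Psma4* and *Psmd8* given further on. How often T stands there in other exons is not given, and a link between this base and the calls was not tested. Skipping of exon 3 was seen on 2 junctions between annotated sites that no annotated transcript joins, from exon 1 to exon 4 and from exon 2 to exon 4.

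Reads that skipped exon 3 were rarest in vehicle-treated U2AF1(WT) marrow and most frequent in sudemycin-treated U2AF1(S34F) marrow. As a share of skipping reads plus reads from exon 3 to exon 4, a measure chosen after the events had been seen and given without a test, they made up 0, 0, 0.277, 0.573 and 1.03% in the 5 vehicle-treated U2AF1(WT) mice. In sudemycin-treated U2AF1(WT) mice they made up 1.54, 1.82, 2.94, 3.72 and 7.71%. In U2AF1(S34F) mice the share was 2.90, 4.02, 5.37, 5.80 and 6.25% with vehicle and 7.18, 7.82, 9.96, 11.01 and 12.8% with the drug. All mice of the other 3 groups lay above all vehicle-treated U2AF1(WT) mice, and sudemycin-treated U2AF1(S34F) mice lay above vehicle-treated ones. The sudemycin-treated U2AF1(WT) and vehicle-treated U2AF1(S34F) ranges overlapped. So did the genotypes under the drug, where the highest U2AF1(WT) mouse (7.71%) lay above the lowest U2AF1(S34F) mouse (7.18%). Group means were 0.376 ± 0.436%, 3.55 ± 2.48%, 4.87 ± 1.38% and 9.76 ± 2.31% (SD, *n*=5). They rest on 10 skipping reads beside 2694 reads from exon 3 to exon 4, 101 beside 2946, 186 beside 3682 and 377 beside 3487. A count of 0, as in 2 vehicle-treated U2AF1(WT) mice, allows a share of up to 0.637% in one and 0.491% in the other. For the highest mouse, at 12.8%, the 95% Wilson interval was 10.6 to 15.4%, which covers counting error only. Replicate 2 of the vehicle-treated U2AF1(WT) mice, apart in gene level, lay within its group here at 0.573%.

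**Figure D5:**
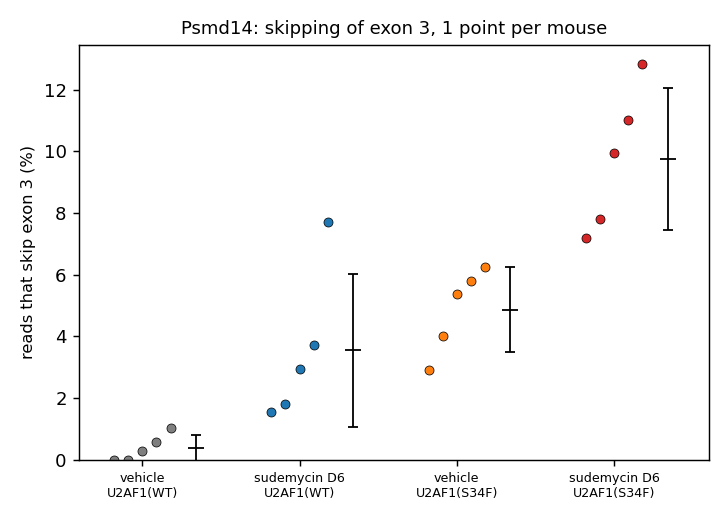
Share of *Psmd14* reads that skip exon 3 (skipping reads over skipping reads plus reads from exon 3 to exon 4, in percent) in each mouse, with the mean ± SD of each group beside its points and the lower bar of the first group ended at 0. The means step from 0.376% in vehicle-treated U2AF1(WT) through 3.55% and 4.87% to 9.76% in sudemycin-treated U2AF1(S34F) mice. The sudemycin-treated U2AF1(WT) range overlaps those of both U2AF1(S34F) groups.

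Events were also tested across the table. Exon 3 taken between exon 1 and exon 4 had a ΔΨ of -0.0484 (FDR=0.00778) for the genotype under vehicle and -0.0674 (FDR=0.00746) under sudemycin D6. The drug gave -0.0327 (FDR=0.232) in U2AF1(WT) and -0.0517 (FDR=0.0896) in U2AF1(S34F) mice, and both together gave -0.1001 (FDR=2.48e-08). Exon 2 lies between exon 1 and exon 3, and reads from exon 1 to exon 3 numbered 0 to 7 per mouse. Averaging them with reads from exon 3 to exon 4 lowers the inclusion count of this event and so enlarges its ΔΨ. Its skipping junction, from exon 1 to exon 4, leaves out exon 2 and exon 3 together. With exon 2 as the upstream neighbour the values were -0.0207 (FDR=0.0177), -0.0302 (FDR=0.05004), -0.0174 (FDR=0.188), -0.0269 (FDR=0.119) and -0.0477 (FDR=3.89e-07) in the same order. The direction was more skipping in every one, and the drug in U2AF1(WT) mice did not pass the test in either. The remaining called *Psmd14* events were 1 of exon 2 taken between exon 1 and exon 4 and 2 of a longer form of exon 3 (chr2:61560767-61560905). Of the latter, 1 rests on 0 to 61 reads per mouse. The exon 2 event uses the same skipping junction from exon 1 to exon 4, so it does not show skipping of exon 2 alone. Whether drug and mutant effects on this exon differ was not tested.

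These counts of events depended on single mice. Under vehicle 3 were called between genotypes without replicate 2 of the U2AF1(WT) mice. Under sudemycin D6 the count was 1 without replicate 9 of the U2AF1(S34F) or replicate 6 of the U2AF1(WT) mice, and 2 without U2AF1(S34F) replicate 2, 10 or 12 or U2AF1(WT) replicate 10. The drug in U2AF1(S34F) mice gave 0 without replicate 2, 6 or 9 of the sudemycin-treated or replicate 5 of the vehicle-treated mice, and in U2AF1(WT) mice it gave 1 without replicate 4 of the vehicle-treated mice. For both together the range was 4 to 6.

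The 2 other called exons changed little. A rarely used exon of *Psma4* (chr9:54799151-54799235, + strand, 85 bases) had Ψ of 0.0264 at the median in vehicle-treated U2AF1(WT) mice (0.0219 to 0.0306) and 0.0112 in vehicle-treated U2AF1(S34F) mice (0.00338 to 0.0134), without overlap (ΔΨ -0.0166, FDR=0.0401). Under sudemycin D6 its ΔΨ was -0.0127 (FDR=0.232). An exon of *Psmd8* (chr7:29961092-29961192, - strand, 101 bases) was fully included in all U2AF1(S34F) mice and had Ψ of 0.974 to 1 in sudemycin-treated U2AF1(WT) mice (ΔΨ 0.0103, FDR=0.0988). Apart from the *Psmd14*, *Psma4* and *Psmd8* events, ΔΨ stayed between -0.0162 and 0.0247 in the 5 comparisons and none was called. The intron ends before the *Psma4* and *Psmd8* exons are shown as for *Psmd14*, and both have C before AG.
Psma4: ttggaaccgactcctggCaggtt
Psmd8: ttctccattggctttggCagtac
Reads on unannotated pairings of annotated sites made up 0.0617 ± 0.00906% of the subunit genes' junction reads in vehicle-treated U2AF1(WT) and 0.0863 ± 0.0104% in sudemycin-treated U2AF1(S34F) mice. Leaving out *Psmd14*, the shares were 0.0608 ± 0.0109% and 0.0544 ± 0.0110%, and the ranges of these groups overlapped (0.0481 to 0.0756% and 0.0439 to 0.0721%).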

How the data were processed

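Bulk bone marrow RNA of 20 mice (4 groups of 5, grouped by genotype and treatment as given in the sample labels) had been sequenced by the authors as stranded, ribosomal RNA-depleted paired reads of 126 bases. Per the study's methods, reads were aligned with TopHat (2.0.8) to mm9 (NCBI build 37). The deposited files hold whole-number counts of reads per gene and per exon junction. The gene counter and its strand setting are not given in the sources used here.

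From these, genes were tested with edgeR (4.0.16, R 4.3.3) after filterByExpr and TMM scaling, by the quasi-likelihood test with a robust fit and a prior count of 2, on the 10 mice of each pair of groups. The drug effect with genotype as a term and the difference of drug effects used all 20 mice. P-values were adjusted by Benjamini-Hochberg over all genes tested, and FDR<10% was called. CPM, RPKM and junction shares were computed from the deposited counts. Replicates are labelled as separate mice, whose donor marrow was pooled. Recipients of the same genotype may share a donor pool. Tests between genotypes therefore measure the spread between recipients and not between donors.

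Cassette exon events were kept from an average of 10 reads a mouse, with 1 or more for either isoform, and were tested with edgeR's quasi-likelihood test at a dispersion of 0 with a term for each mouse. That form was chosen in earlier work on these data after several had been run, and the counts of events depend on it. The alternatives were DESeq2 (1.42.0), DESeq2's size factors, other filters, autosomal genes alone, junction reads, 1 model of all mice, a replicate block, leaving out each mouse, and for events limma (3.58.1) on Ψ, a minimum of 20 reads, |ΔΨ|>10% and, added after the data were seen, annotated skipping junctions alone. The scripts were tested on simulated data.

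Gene counts summed to 41145892 to 62138138 and junction counts to 34384214 to 64813149 per mouse. Intervals and limits cover counting error only. The subunit genes, the other lists and the motifs were chosen with earlier results of these data known. Per-mouse values are given for the 3 catalytic subunits and the 8 further genes with the smallest p over the 7 comparisons, every called subunit gene and event is named, and other pathway genes are named only if called, apart from *Psmb8*, *Psmb9* and *Psmb10*. *Paaf1* was not matched. Some results are not reported here. Gene models are those of GENCODE vM1 (NCBIM37) and promoters those of RefSeq (GRCm38.p6), whose coordinates were not mixed. No protein sequence was used here.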

Additional observations from a re-analysis of the deposited data

Results flagged for a closer look

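In 7 of 52 groups of 5 values that were examined, 1 mouse lay farther from the others than Dixon's 95% limit, where chance gives about 1 in 20 groups. In 5 of the 7 it was replicate 2 of the vehicle-treated U2AF1(WT) mice. Its level was 82.2 CPM for *Psmb7* (57.3 to 61.9 in the other 4 mice), 69.6 CPM for *Psmd14* (50.03 to 54.8), 93.6 CPM for *Psmc1* (57.0 to 66.7) and 114 CPM for *Psma2* (79.2 to 84.7), and its summed subunit level was 2576 CPM (1798 to 1934). These 5 values come from 1 library and are not independent. *Psma4* stood at 103 CPM in replicate 5 of the vehicle-treated U2AF1(S34F) mice (91.3 to 93.5 in the others), and *Psma3* at 76.6 CPM in replicate 7 of that group (81.8 to 82.5).

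*Psmb9*, an interferon-inducible catalytic subunit, showed signal in the junction table that the gene counts do not hold. Its annotated junctions had between 1621 and 4564 reads in each of the 20 mice, while its gene count was at most 3. The median in U2AF1(WT) mice was 2264 reads with vehicle and 2115 with the drug, and in U2AF1(S34F) mice 2989 and 2163. The cause was not tested.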

How the results depend on the processing

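Leaving out each mouse in turn, the number of subunit genes called was 19 to 27 for the genotype under vehicle, 22 to 24 for the genotype under sudemycin D6, 0 to 6 for the drug in U2AF1(WT), 4 to 10 for the drug in U2AF1(S34F), 27 to 29 for both together, 5 to 24 for the drug with genotype as a term and 0 to 0 for the difference of drug effects. Called events numbered 3 to 6, 1 to 5, 0 to 1, 0 to 2 and 4 to 6 in the first 5 of these comparisons. With 1 model of all mice, 1 subunit gene was called for the drug in U2AF1(WT) and 3 in U2AF1(S34F). With limma on Ψ, 0 events were called for the genotype under vehicle, 0 under sudemycin D6 and 0 for the drug in U2AF1(S34F). With |ΔΨ|>10% these were 1, 0 and 0, with 2 for both together, and with annotated skipping junctions alone 1, 0 and 0, with 0 for both together. The cause was not tested, except that the last setting removes the *Psmd14* events by its construction.

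The difference of drug effects for *Psmb7* (-0.02) was 0.0057 with no filter and 0.0046 with junction reads. Leaving out each mouse, it ran from -0.125 to 0.0325, that of *Psmb6* (-0.03) from -0.143 to 0.0335 and the median over the subunit genes (0.02) from -0.108 to 0.0790. Other single-gene values kept direction and call in 691 cases, lost the call in 19 and gained it in 1 under the settings that keep all mice.

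Replicate numbers are shared only between genotypes and did not pair the mice: same-numbered mice had correlations of deviations between -0.111 and 0.211. With the replicate block 26 subunit genes were called for the genotype under vehicle and 20 under sudemycin D6. Only mice whose number occurs in both genotypes inform these counts: 1, 3 and 5 under vehicle and 6, 9, 10 and 12 under sudemycin D6. Replicate 2 of the vehicle-treated U2AF1(WT) mice has no partner, so it adds nothing to the first count. No block was run for events or for drug effects, whose groups share no numbers. With 5 mice a group, small differences in these transcripts may go undetected, and skipping shares rest on up to 95 skipping reads per mouse.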
